A study of Homo sapiens with 11 samples.

Results

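SPINK1, PLEKHS1, DAB1, AADAC and A2ML1 are 5 genes whose RNA lay below the untreated level when RT4 cells were exposed to nickel. They are 5 of the 28252 genes listed for the RT4 RNA-Seq libraries and 5 of the 26237 promoters listed for H3K4me3 in BEAS-2B cells. The genes were picked by name because they had been seen among the largest falls in exposed RT4 cells, with no stated threshold, so their levels in exposed against untreated cells are given as a description only. The question put to them was how far each returned after nickel was removed.

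RT4 is a human line from a non-invasive bladder cancer. Untreated RT4 cells (UT), cells cultured for 6 weeks with 100 μM NiCl2 (Ni-E), and cells that were exposed in the same way, washed and grown for 2 weeks in medium without nickel (Ni-W) were each represented by 2 biological replicates, whose total RNA was sequenced. BEAS-2B is an immortalized human bronchial epithelial line, for which H3K4me3 ChIP-Seq gave 1 library for every condition. Its UT cells were not exposed, and its Ni-E cells had the same dose and time of NiCl2 as RT4 cells. The BEAS-2B Ni-W cells were a population expanded from 1 randomly picked colony and had been without nickel for more than 6 months, although the labels also name 2 weeks for this line. RNA from BEAS-2B cells was not analysed here.

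The 5 genes act in different places in the cell. SPINK1 encodes a small secreted Kazal-type inhibitor of trypsin that is made by the pancreas and by many mucosal epithelia. A2ML1 encodes a secreted protease inhibitor of the alpha-2-macroglobulin family and is known from stratified epithelia. DAB1 encodes an adaptor protein that is phosphorylated when Reelin binds its receptors, which are VLDLR and LRP8. PLEKHS1 encodes a protein with a pleckstrin homology domain, a fold that in many proteins binds membrane phosphoinositides. AADAC encodes an esterase of the endoplasmic reticulum membrane that hydrolyses drugs and lipids and is best known from liver and intestine. H3K4me3 is a histone mark of active promoters. Nickel ions are known to inhibit iron-dependent dioxygenases, among them the enzymes that hold the hypoxia-inducible factor (HIF) in check.

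Sequencing depth was 17075833 to 27736454 estimated counts per RT4 library, and the library labelled as the duplicate was 1.42 to 1.55 times as deep as the other in each group. All 17 urothelial and epithelial markers had a mean above 1 TPM (transcript abundance corrected for gene length and library size), and their summed level was 14210 to 17850 TPM. Of 19 markers of other cell types, 2 had a mean above 1 TPM and 7 were listed at 0 in all libraries, among them CD3E, COL1A2 and ALB. Their summed level was 3.71 to 3.90 TPM in UT, 3.85 to 6.01 TPM in Ni-E and 3.56 to 7.13 TPM in Ni-W libraries. COL3A1, a fibrillar collagen, was at 0.84 and 0.26 TPM in UT, 4.13 and 2.18 TPM in Ni-E, and 4.55 and 1.48 TPM in Ni-W libraries. Of the 17 urothelial and epithelial markers, 2 were lower in Ni-E than in UT cells by at least 1.5-fold with an edgeR adjusted p below 0.05. None was higher and 15 did not pass, with a median log2 fold change of −0.25 (0.710% of all tested genes were called lower). In Ni-W cells 1 of the 17, KRT20, was lower (0.0965% of all tested genes). The 2 in Ni-E cells were KRT20, a keratin of umbrella cells, and UPK1A, a uroplakin. Their log2 fold changes in Ni-E cells were −6.03 (SE 0.41, edgeR adjusted p = 0.0085) and −2.27 (SE 0.33, edgeR adjusted p = 0.0376). Their part in the values of the 5 genes was not tested. In bulk RNA, fewer cells that express a gene and less RNA per cell cannot be told apart.

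The genes did not rank alike by the size of the difference. In the order of log2 fold change in Ni-E against UT cells, from the lowest of the 14502 genes tested, DAB1 stood at position 6, SPINK1 at 8, PLEKHS1 at 18 and AADAC at 346. AADAC was thus not among the largest falls. A2ML1 stood at position 47, a place that rests on 3 counts in both Ni-E libraries together. Few counts also lay behind DAB1 (7) and SPINK1 (11) in these 2 libraries. In edgeR, DAB1, SPINK1 and PLEKHS1 met the criteria for a call used below (at least 1.5-fold with an adjusted p below 0.05), as did 0.710% of the 14502 genes in this direction. AADAC met them in DESeq2 but not in edgeR, and A2ML1 in neither. That comparison chose the genes, so these calls describe them and nothing is read from their number. All 5 genes passed the filter on low counts, but SPINK1, DAB1 and A2ML1 passed it only through their UT and Ni-W libraries.

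The genes lie on 5 chromosomes. In the GENCODE version 44 annotation of GRCh38, SPINK1 spans chr5:147824572-147831671 on the minus strand, PLEKHS1 chr10:113751262-113783429 on the plus strand, DAB1 chr1:56994778-58546734 on the minus strand, AADAC chr3:151814073-151828488 on the plus strand and A2ML1 chr12:8822621-8887001 on the plus strand. DAB1 extends over 1551957 bases. The nearest tested genes on either side were DPYSL3 and SPINK5 for SPINK1, IGSF10 and MBNL1 for AADAC, and RIMKLB and PHC1 for A2ML1. None of these 6 neighbours was called in any of the 3 comparisons. RIMKLB, 39.5 kb from A2ML1, had a log2 fold change of 1.28 (SE 0.32, edgeR adjusted p = 0.142) in Ni-E against UT cells. The DAB1 locus also overlaps OMA1, a mitochondrial protease gene on the same strand, which was listed at 17.13 to 23.05 TPM in the 6 libraries.

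The promoters are shown because the H3K4me3 values below were read at the transcription start sites. The sequences are from RefSeq (GRCh38.p14), the 250 bases before the annotated start on the gene's strand, with the letters of the motifs named below in capitals. They are chr5:147831672-147831921 (minus strand) for SPINK1, chr10:113751432-113751681 (plus strand) for the more upstream of the annotated PLEKHS1 starts, chr3:151813866-151814115 (plus strand) for AADAC and chr12:8822371-8822620 (plus strand) for the more upstream of the A2ML1 starts.
SPINK1: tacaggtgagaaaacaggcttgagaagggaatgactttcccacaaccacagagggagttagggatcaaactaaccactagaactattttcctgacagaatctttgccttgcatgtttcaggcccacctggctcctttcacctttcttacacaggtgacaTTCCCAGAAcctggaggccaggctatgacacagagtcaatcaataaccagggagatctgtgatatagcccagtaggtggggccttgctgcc
PLEKHS1: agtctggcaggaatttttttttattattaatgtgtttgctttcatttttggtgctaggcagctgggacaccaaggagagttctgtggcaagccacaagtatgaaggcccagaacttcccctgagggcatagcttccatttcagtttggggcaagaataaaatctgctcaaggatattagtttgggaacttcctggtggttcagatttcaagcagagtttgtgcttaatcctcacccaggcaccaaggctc
AADAC: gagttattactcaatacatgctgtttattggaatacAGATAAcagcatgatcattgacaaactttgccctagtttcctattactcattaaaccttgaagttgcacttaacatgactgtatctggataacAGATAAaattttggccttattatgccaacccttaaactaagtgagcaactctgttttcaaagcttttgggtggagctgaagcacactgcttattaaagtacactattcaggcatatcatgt
A2ML1: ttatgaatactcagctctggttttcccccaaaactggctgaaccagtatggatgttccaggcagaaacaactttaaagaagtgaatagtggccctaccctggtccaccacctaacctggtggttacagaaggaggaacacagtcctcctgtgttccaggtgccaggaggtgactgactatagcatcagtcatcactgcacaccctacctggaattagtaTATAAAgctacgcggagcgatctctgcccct

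These 4 promoters were poor in CpG. SPINK1, PLEKHS1 and AADAC had 0 CpG in these 250 bases, as did 6.06% of 35116 RefSeq promoters, and A2ML1 had 3. The median over all promoters was 11, with quartiles of 3 and 23. GC content was 48.8% for SPINK1, 44.8% for PLEKHS1, 35.6% for AADAC and 49.2% for A2ML1, against a median of 58.0%. DAB1, for which no promoter is printed because 6 starts are annotated and the one in use is not given in the sources used here, differed in this respect, with 12 to 41 CpG in the 250 bases before each start.

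Motifs were searched on both strands. They were TATAAA for the core promoter box of that name, TTCNNNGAA for the STAT factors and TGANTCA for the factor AP-1. For the GATA factors AGATAA was used. The cores ACGTG and, separately, GCGTG were used for hypoxia response elements, and the former matches both strands where it is preceded by a C. The SPINK1 promoter held TTCNNNGAA, starting 91 bases before the start of transcription, as did 6.57% of all promoters at any position. The AADAC promoter held AGATAA at 214 and 121 bases before the start, a motif present in 9.17% of promoters. The A2ML1 promoter held TATAAA at 31 bases before the start (10.7% of promoters), and the PLEKHS1 sequence shown held none of the motifs. TGANTCA (6.57% of promoters), ACGTG (18.5%) and GCGTG (32.2%) were not in the 4 windows shown. In the windows not shown, the other PLEKHS1 start had TATAAA and TTCNNNGAA, the other A2ML1 start had ACGTG and GCGTG, and of the 6 DAB1 starts 1 had ACGTG and 3 had GCGTG. Which start is used in RT4 or BEAS-2B cells is not given in the sources used here. A match of letters does not show that a factor binds.

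**Figure D1:**
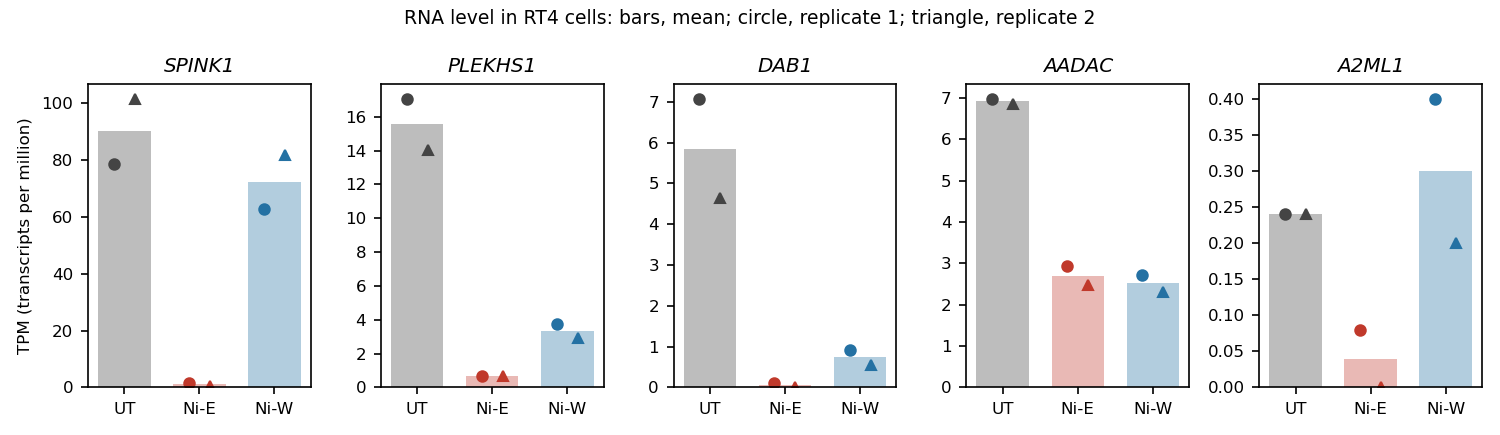
RNA level of the 5 genes in RT4 cells, in TPM on a linear axis with a scale of its own for each gene, by group (UT, Ni-E, Ni-W). Bars are group means, circles replicate 1 and triangles replicate 2. SPINK1 is near its UT level in Ni-W cells, PLEKHS1 and DAB1 lie between, and AADAC is as low in Ni-W as in Ni-E cells.

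SPINK1 was the most abundant of the 5 genes in UT cells, and its level after washout overlapped that of untreated cells. It was at 78.76 and 101.49 TPM in the UT libraries, at 1.67 and 0.56 TPM in the Ni-E libraries, and at 62.77 and 81.92 TPM in the Ni-W libraries. The Ni-E values were low in both replicates, and 1 Ni-W library lay within the UT range. In UT cells SPINK1 stood above 93.86% of all listed genes by TPM, in Ni-E cells above 54.25% and in Ni-W cells above 92.05%. Behind the Ni-E level were 7 and 4 counts, against 333 and 711 in UT and 229 and 580 in Ni-W libraries. Ni-E cells thus held 1.24% of the mean UT level of 90.1 ± 16.1 TPM (SD, n = 2), and Ni-W cells held 80.3%. The log2 fold change in Ni-E cells was −6.50 (SE 0.58, 95% interval −7.92 to −5.07). In Ni-W against UT cells it was −0.36 (SE 0.41, 95% interval −1.37 to 0.64, edgeR adjusted p = 0.9995). A return to the UT level and a lower level both lie within this interval.

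Against Ni-E cells, SPINK1 in Ni-W cells was higher by 6.13 on the log2 scale (SE 0.58, 95% interval 4.71 to 7.55). The adjusted p of edgeR was 0.124, and no gene was called in this comparison (0 of 14502, 0%). At an unadjusted p below 0.05 the test held 808 genes (5.57%), 472 of them higher. DESeq2 called 139 genes, SPINK1 among them (DESeq2 adjusted p = 9.003e-20). Without a filter on low counts edgeR called 14 genes, again with SPINK1 among them (edgeR adjusted p = 0.0167). The UT and Ni-E libraries used in these tests are those on which the genes had been chosen, and this holds for all such values of the 5 genes. For any single gene, 2 libraries against 2 allow no two-sided exact permutation p below 0.33.

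A2ML1, the other protease inhibitor, was at the edge of detection. It was at 0.24 and 0.24 TPM in UT, at 0.08 and 0 TPM in Ni-E, and at 0.40 and 0.20 TPM in Ni-W libraries. The counts behind these levels were 11 and 16 in UT, 3 and 0 in Ni-E, and 17 and 13 in Ni-W libraries. The Ni-E libraries lay below all others, and the UT and Ni-W libraries overlapped. From the pooled counts scaled for depth, the ratio of Ni-E to UT cells was 0.107 (95% counting interval 0.0209 to 0.349) and that of Ni-W to Ni-E cells 10.5 (3.27 to 53.9). In Ni-W against UT cells the log2 fold change was 0.24 (SE 0.75, 95% interval −1.61 to 2.09, edgeR adjusted p = 0.9995). It was −0.27 without Ni-W replicate 1 and 0.67 without Ni-W replicate 2, so 1 library set its sign. Intervals from pooled counts cover counting error only and leave out the variation between libraries. Reads were also counted without molecular identifiers.

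PLEKHS1 remained below untreated cells after washout, although above its level in exposed cells. Its levels were 17.06 and 14.04 TPM in UT, 0.69 and 0.66 TPM in Ni-E, and 3.77 and 2.91 TPM in Ni-W libraries. The 3 groups were fully separated, in the order UT, Ni-W and Ni-E. The share of all tested genes separated in this way was not determined. The distance between UT and Ni-E libraries also follows from the choice of the genes, so the separation is a description only. Counts were 612 and 862 in UT, 27 and 40 in Ni-E, and 123 and 173 in Ni-W libraries, so the level in Ni-E cells was better counted than that of SPINK1, DAB1 or A2ML1. Against a UT mean of 15.6 ± 2.14 TPM (SD, n = 2), Ni-E cells held 4.34% and Ni-W cells 21.5%. The log2 fold change in Ni-E cells was −4.50 (SE 0.22, 95% interval −5.04 to −3.96).

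Compared with UT cells, PLEKHS1 in Ni-W cells fell by 2.28 on the log2 scale (SE 0.19, 95% interval −2.76 to −1.80, edgeR adjusted p = 0.016). It was the only gene of the 5 called in this comparison, in which 0.0965% of the tested genes were called lower and 0.503% higher. With each of the 6 libraries left out in turn it was −2.31 to −2.24, but its adjusted p in edgeR then lay between 0.0544 and 0.131, above the threshold in each case. Fitted on the UT and Ni-W libraries alone, it was 0.114. In Ni-W against Ni-E cells PLEKHS1 was higher by 2.22 (SE 0.21, 95% interval 1.71 to 2.73, edgeR adjusted p = 0.124), which was not called. DESeq2 called this difference (DESeq2 adjusted p = 2.43e-08), and so did edgeR without a filter on low counts (edgeR adjusted p = 0.0408).

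DAB1 was, with SPINK1, the gene with the lowest level in exposed relative to untreated cells, and after washout it lay between the other groups. It was at 7.07 and 4.64 TPM in UT, at 0.12 and 0.01 TPM in Ni-E, and at 0.92 and 0.56 TPM in Ni-W libraries. As for PLEKHS1, and with the same limits, the groups were fully separated in the order UT, Ni-W and Ni-E. Ni-E cells held 1.11% and Ni-W cells 12.6% of the UT mean of 5.86 ± 1.72 TPM (SD, n = 2), and the Ni-E level rested on 6 and 1 counts. The log2 fold change in Ni-E cells was −6.66 (SE 0.69, 95% interval −8.35 to −4.96).

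After washout DAB1 had a log2 fold change against UT cells of −3.03 (SE 0.52, 95% interval −4.32 to −1.74), which edgeR did not call (adjusted p = 0.0894). DESeq2 called it (DESeq2 adjusted p = 5.74e-09), and so did edgeR without a filter on low counts (adjusted p = 0.0242). Relative to Ni-E cells, DAB1 in Ni-W cells was higher by 3.62 (SE 0.70, 95% interval 1.91 to 5.34, edgeR adjusted p = 0.287), and DESeq2 called this difference too (DESeq2 adjusted p = 7.179e-05). Without the filter, edgeR did not call it (edgeR adjusted p = 0.118). The overlapping gene OMA1 had log2 fold changes of −0.11 (SE 0.23) in Ni-E and 0.02 (SE 0.23) in Ni-W against UT cells.

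AADAC differed least from UT cells among the 5 in Ni-E cells, and its level after washout was no higher. Its levels were 6.98 and 6.86 TPM in UT, 2.94 and 2.47 TPM in Ni-E, and 2.72 and 2.31 TPM in Ni-W libraries. Both UT libraries stood above the other 4, and the Ni-E and Ni-W libraries overlapped. In UT cells the TPM values of AADAC lay within the range of DAB1, and in Ni-E and Ni-W cells above it. Ni-E cells held 39.1% and Ni-W cells 36.3% of the UT mean of 6.92 ± 0.0849 TPM (SD, n = 2). The log2 fold change was −1.38 in Ni-E cells (SE 0.26, 95% interval −2.03 to −0.74). In Ni-W against UT cells it was −1.52 (SE 0.26, 95% interval −2.17 to −0.87, edgeR adjusted p = 0.0911), which was not called by edgeR and was called by DESeq2 (DESeq2 adjusted p = 0.00825). In Ni-W against Ni-E cells it was −0.14 (SE 0.27, 95% interval −0.80 to 0.52, edgeR adjusted p = 0.9999). The Ni-E libraries had a part in the choice of the genes, so this interval is not set against those of the others.

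**Figure D2:**
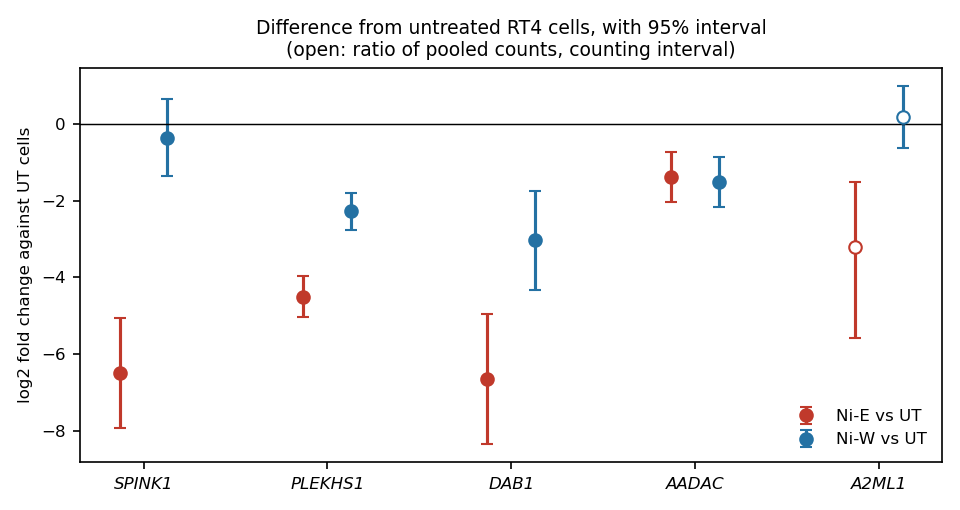
Log2 fold change of the 5 genes against UT cells, red for Ni-E and blue for Ni-W cells, on a linear axis of log2 values. Filled points are edgeR estimates with 95% intervals from 2 libraries per group, and open points (A2ML1) are ratios of pooled counts with 95% counting intervals. The Ni-W point lies above the Ni-E point for every gene except AADAC, whose values are −1.38 and −1.52.

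How far each gene returned was expressed as the share of its log2 fall that was regained, which is the difference of Ni-W from Ni-E cells divided by that of UT from Ni-E cells, in log2 CPM (counts scaled to library size). SPINK1 regained 93.7%, with a range of 81.6% to 106% over the 8 choices of 1 library per group. DAB1 regained 51.9% (39.5% to 62.0%) and PLEKHS1 48.7% (47.4% to 50.1%), and these ranges overlapped. AADAC had a share of −10.2% (−21.3% to −1.46%), so that in each choice of libraries its Ni-W level lay below its Ni-E level on this scale. No share is given for A2ML1, whose Ni-E level rested on 3 counts in all.

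On the linear TPM scale the shares were lower for the genes that had fallen most. SPINK1 regained 80.0% of its lost TPM, PLEKHS1 17.9%, DAB1 11.7% and AADAC −4.51%. The order of PLEKHS1 and DAB1 thus differed between the scales, while SPINK1 was highest and AADAC lowest on both.

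The 96 genes called lower in Ni-E cells with a mean of at least 1 CPM, which include SPINK1, PLEKHS1 and DAB1, are set beside these shares. They were called on the same UT and Ni-E libraries that enter the share, so the comparison is a description only. Their median share was 51.2%, with quartiles of 31.7% and 63.1%. Of the 96, 12 (12.5%) regained more than 75%, and 18 (18.8%) less than 25%. The share of SPINK1 was above that of 91.7% of them, that of DAB1 above 51.0% and that of PLEKHS1 above 43.8%. AADAC, which is not among the 96, was above 5.21%.

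**Figure D3:**
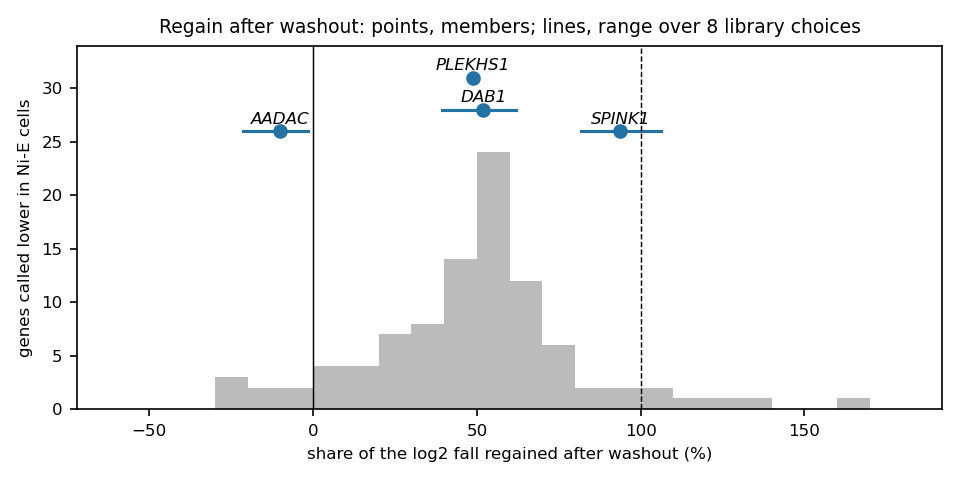
Share of the log2 fall in Ni-E cells that was regained in Ni-W cells, in percent, on a linear axis. Grey bars count the 96 genes called lower in Ni-E cells with at least 1 CPM, and blue points and lines give 4 of the 5 genes with their range over the 8 library choices, at arbitrary heights. AADAC lies below 0, PLEKHS1 and DAB1 near the median of 51.2%, and SPINK1 at 93.7%.

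The genes were also compared with each other within each library of UT and Ni-W cells, without the Ni-E libraries. The UT libraries had a part in the choice of the genes, so these values too are a description. The difference between the log2 CPM of SPINK1 and that of DAB1 was −0.10 and 0.95 in the UT libraries and 2.47 and 3.56 in the Ni-W libraries, so that SPINK1 gained 2.59 on DAB1 (1.52 to 3.66 over the 4 pairs of libraries). SPINK1 gained 1.89 on PLEKHS1 (1.17 to 2.61) and 1.10 on AADAC (0.59 to 1.60). The ranges for these 3 pairs lay above 0, and the largest distance was that to DAB1. PLEKHS1 gained 0.70 on DAB1 (0.36 to 1.05). Against AADAC, PLEKHS1 had −0.79, and the highest of the 4 values was −0.58. DAB1 lost 1.49 on AADAC (−2.05 to −0.93 for DAB1 minus AADAC). Relative to A2ML1, the value of SPINK1 was −0.56 (−1.65 to 0.52), a range that includes 0. Relative to UT cells, the order of the genes after washout was thus A2ML1 and SPINK1, which were not separated, then AADAC, PLEKHS1 and DAB1.

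The abundance-weighted transcript length of a gene changes when its isoforms are used in other proportions. For PLEKHS1 this length was 3821.7 and 3963.0 bases in UT, 4137.9 and 3804.4 bases in Ni-E, and 4007.9 and 3757.1 bases in Ni-W libraries, and the 3 groups overlapped. DAB1 was at 5290.9 and 5054.7 bases in UT and between 5266 and 5301 bases in the other 4 libraries. Its Ni-E lengths rested on 6 and 1 counts, too few to describe the use of isoforms. SPINK1 was at 610 to 611.1 bases and AADAC at 1563 bases throughout. For A2ML1 the lengths ranged from 3785 to 5127 bases on at most 17 counts per library.

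The genes whose pattern over the 6 libraries was most like each member were found by the root mean square (RMS) difference of centred log2 CPM. For PLEKHS1 they were HOPX (RMS difference 0.28), WFDC21P (0.33) and LINC01224 (0.37). HOPX, a homeodomain protein without DNA binding, was at 73.15 and 67.03 TPM in UT, 4.66 and 4.59 TPM in Ni-E, and 15.90 and 13.48 TPM in Ni-W libraries. It therefore stood higher than PLEKHS1 in every library and followed it closely in proportion. For DAB1 they were KRT20 (0.53), FAM3B (0.69) and RARRES1 (0.82). KRT20 was at 11.07 and 11.27 TPM in UT, 0.25 and 0.11 TPM in Ni-E, and 1.59 and 1.37 TPM in Ni-W libraries.

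SPINK1 had no gene as close to it. The nearest were KRT23 (RMS difference 1.13), FAM3B (1.15) and PLA2G2A (1.27), whose Ni-W and UT libraries, unlike those of SPINK1, did not overlap. Their log2 fold changes were −1.35 (SE 0.31), −2.70 (SE 0.48) and −0.84 (SE 0.35) in Ni-W against UT cells. PLA2G2A, a secreted phospholipase, was at 106.36 and 142.35 TPM in UT, 7.98 and 9.97 TPM in Ni-E, and 64.96 and 79.31 TPM in Ni-W libraries. Like SPINK1, it was abundant, and its Ni-W libraries lay nearer to the UT than to the Ni-E libraries. The genes nearest to AADAC were NGEF (0.12), KRT33A (0.15) and PLPP2 (0.17), and those nearest to A2ML1 were BNIP5 (0.28), IL7R (0.46) and SLC9A4 (0.48). PLPP2, a lipid phosphate phosphatase, was at 52.56 and 55.97 TPM in UT, 20.35 and 17.02 TPM in Ni-E, and 16.64 and 19.77 TPM in Ni-W libraries.

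Most relatives and partners of the 5 genes were not called, which also holds for most of the 14502 tested genes. In Ni-E against UT cells 0.710% of all tested genes were called lower and 1.45% higher, and in Ni-W against UT cells 0.0965% and 0.503%. With shares this small, 0 calls do not set a short list apart. Among Kazal inhibitors and trypsins, 0 of 8 tested genes other than SPINK1 were called in any comparison, with a median log2 fold change of −0.23 in Ni-E and −0.08 in Ni-W against UT cells, where all tested genes had medians of −0.01 and 0.001. SPINK5, the neighbour of SPINK1 and a Kazal inhibitor of stratified epithelium, was at 3.09 and 3.90 TPM in UT, 2.13 and 2.20 TPM in Ni-E, and 3.14 and 3.14 TPM in Ni-W libraries. Its level was lowest in the Ni-E libraries, but its log2 fold change there was −0.70 (SE 0.31, edgeR adjusted p = 0.473).

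In the family of alpha-2-macroglobulin and complement, 1 of 6 tested genes other than A2ML1 was called, and in the direction opposite to A2ML1 in Ni-E cells. C3, the central complement protein, was at 23.17 and 17.92 TPM in UT, 92.50 and 78.71 TPM in Ni-E, and 117.23 and 84.53 TPM in Ni-W libraries. It was higher by 2.06 (SE 0.16, edgeR adjusted p = 0.00895) in Ni-E and by 2.24 (SE 0.16, edgeR adjusted p = 0.0131) in Ni-W against UT cells, directions in which 1.45% and 0.503% of all tested genes were called. PZP was listed at 0 in all 6 libraries and A2M at no more than 0.01 TPM. Of 5 tested genes of the AADAC and carboxylesterase family, 0 were called in any comparison. Of 17 tested PLEKH family members and PI3-kinase subunits, 0 were called, with medians of 0.06 and 0.08. Given the small shares over all tested genes, these counts of 0 do not set either list apart.

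Of the Reelin pathway, other genes than DAB1 were called higher. Of 16 tested genes other than DAB1, 2 were called higher and 0 lower in Ni-E cells, and 1 higher in Ni-W cells, both against UT cells (1.45% and 0.503% of all tested genes were called higher). FYN, a kinase that phosphorylates DAB1, was at 1.21 and 0.85 TPM in UT, 7.86 and 7.86 TPM in Ni-E, and 5.83 and 4.28 TPM in Ni-W libraries. It was higher by 2.95 (SE 0.25, edgeR adjusted p = 0.011) in Ni-E and by 2.24 (SE 0.24, edgeR adjusted p = 0.0296) in Ni-W against UT cells. VLDLR, a Reelin receptor, was higher by 2.35 (SE 0.26, edgeR adjusted p = 0.02) in Ni-E cells. RELN itself was listed at 0 in all 6 libraries, and the median of the pathway was −0.02 in Ni-E and 0.05 in Ni-W cells.

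Genes of stratified epithelium, the setting in which A2ML1 is best known, were counted as well. Of 9 tested genes, Ni-E cells had 3 called lower than UT cells and Ni-W cells 1, with medians of −0.92 and −0.21, where 0.710% and 0.0965% of all tested genes were called lower. KRT13, a keratin of stratified and transitional epithelia, was at 34.47 and 37.40 TPM in UT, 5.36 and 5.86 TPM in Ni-E, and 6.45 and 6.48 TPM in Ni-W libraries. It fell by 2.69 (SE 0.27, edgeR adjusted p = 0.0169) in Ni-E and by 2.52 (SE 0.27, edgeR adjusted p = 0.0294) in Ni-W against UT cells. IVL, encoding involucrin, fell by 1.20 (SE 0.19, edgeR adjusted p = 0.0458) in Ni-E cells. The other called gene was DSC2, a desmosomal cadherin of less than 1 CPM that is named here after its values were seen.

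Liver and gut transcription factors, acute phase genes and HIF targets were described in the same way. Of 8 tested liver and gut factors, 1 was called lower in Ni-E cells, CEBPA, with a log2 fold change of −1.41 (SE 0.19, edgeR adjusted p = 0.03), and 0 were called in Ni-W cells, against 0.710% of all tested genes called lower in Ni-E cells. Of 13 acute phase genes and members of the IL-6 to STAT3 pathway, 3 were called higher in Ni-E cells (SERPINA3, LCN2 and C1S) and 3 in Ni-W cells (SERPINA3, SERPINA1 and C1S), where 1.45% and 0.503% of all tested genes were called higher. The last count was 2 with RLE in place of TMM size factors. Of 14 HIF targets, 5 were called higher in Ni-E cells (1.45% of all tested genes), with a median of 1.20. In Ni-W cells 0 were called, with a median of 0.67. ADM, BNIP3, KDM3A and LDHA rose by 2.30, 1.95, 1.29 and 1.23 on the log2 scale, and the other called gene was EGLN3, also named after its values were seen. None of the markers of other cell types that could be tested (4) was called, and in Ni-W against Ni-E cells 0 genes of any list were called.

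At the promoters of the 5 genes in BEAS-2B cells, H3K4me3 was low in all 3 libraries. Reads were counted by the authors in windows reaching 2 kb to each side of the transcription start site, as RPKM, and the number of reads behind each value was recovered from its steps. Every value of the 5 genes lay below the median of all promoters, which was 1.57 RPKM in UT, 1.39 RPKM in Ni-E and 1.12 RPKM in Ni-W cells. They stood above 15.0% to 45.3% of all promoters. How far they lay above the background of the ChIP was not determined, since the inputs were not analysed. With 1 library per condition, the differences have no replicate check, and the intervals given cover counting error only.

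SPINK1 was at 0.264 RPKM in UT (30 reads), 0.240 RPKM in Ni-E (36 reads) and 0.292 RPKM in Ni-W cells (35 reads). These levels were within counting error of each other. PLEKHS1 was at 0.511 RPKM in UT (58 reads, 95% Wilson interval 0.395 to 0.660), 0.540 RPKM in Ni-E (81 reads, 0.435 to 0.671) and 0.267 RPKM in Ni-W cells (32 reads, 0.189 to 0.377). In RPKM it was the only gene of the 5 with the lowest level in Ni-W cells by more than counting error. The median of all promoters was also lowest in that library, and after scaling to it the difference from UT cells was within counting error (below).

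DAB1, which had the highest level of the 5, was at 0.634 RPKM in UT (72 reads), 0.687 RPKM in Ni-E (103 reads) and 0.526 RPKM in Ni-W cells (63 reads). AADAC was at 0.291 RPKM in UT (33 reads, 95% Wilson interval 0.207 to 0.408), 0.360 RPKM in Ni-E (54 reads, 0.276 to 0.470) and 0.451 RPKM in Ni-W cells (54 reads, 0.346 to 0.588). A2ML1 was at 0.176 RPKM in UT (20 reads), 0.260 RPKM in Ni-E (39 reads) and 0.225 RPKM in Ni-W cells (27 reads). The intervals of UT and Ni-W cells overlapped for each of these 3 genes.

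**Figure D4:**
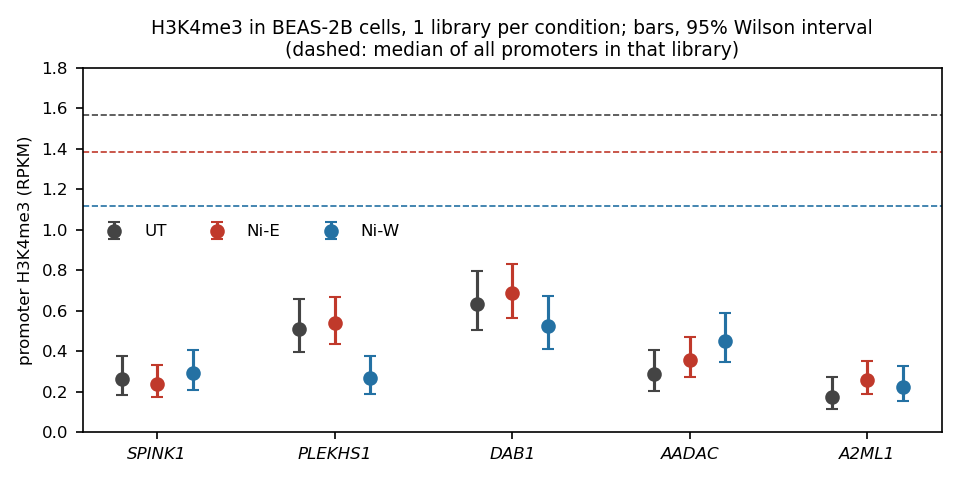
H3K4me3 at the promoters of the 5 genes in BEAS-2B cells, in RPKM on a linear axis, with 1 library for every condition. Error bars are 95% Wilson intervals of the reads, and dashed lines give the median of all promoters in the library of the same colour. All points lie below the dashed lines, and PLEKHS1 is at 0.267 RPKM in Ni-W cells, whose library also had the lowest median.

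Since the median promoter also differed between the libraries, the chromatin dynamic score used by the study was computed, which is the difference between the square roots of the levels after each is divided by its library's median. In Ni-E against UT cells the scores of the 5 genes were 0.01 to 0.10, all within counting error, where the median of all promoters was 0.05. AADAC in Ni-W against UT cells had 0.204 (95% counting interval 0.092 to 0.316), above 90.7% of promoters, and A2ML1 0.113 (0.0013 to 0.225), where the median of all promoters was −0.0266. PLEKHS1 had −0.0824 (−0.194 to 0.0297), which after scaling to the median was within counting error. SPINK1 had 0.101 and DAB1 0.0497, both within counting error. Without the scaling to the median, the difference of square roots was −0.198 for PLEKHS1 and −0.071 for DAB1, so that the sign for DAB1 depended on it. For AADAC and A2ML1 it was 0.132 and 0.0548, and the score after quantile normalization was 0.109 and 0.0566. The counting interval was not computed for these alternatives. Reads summed over all promoters were 10662865 in UT cells (depth 28385725) and 6851607 in Ni-W cells (depth 29933551). The median was also lower in Ni-W cells (1.12 against 1.57 RPKM), and dividing by a lower median raises every scaled level in that library. Promoters of similarly low level were not compared separately, so no gain of H3K4me3 is read from these scores.

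In Ni-W against Ni-E cells PLEKHS1 had −0.135 (95% counting interval −0.244 to −0.0269), and 40.1% of promoters had a lower score, since the median of all promoters was −0.0746. AADAC had 0.125 (0.0168 to 0.234), and SPINK1, DAB1 and A2ML1 were within counting error. The cell lines, the time without nickel and the clonal origin of the BEAS-2B Ni-W cells differ between the RNA and H3K4me3 values, and their parts cannot be told apart.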

How the data were processed

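RNA-Seq of RT4 cells (UT, Ni-E and Ni-W, 2 libraries each) and H3K4me3 ChIP-Seq of BEAS-2B cells (1 library per condition) were used. Groups follow the sample titles. The 5 genes and the gene lists were chosen with earlier results of these data known. ChIP inputs were not analysed here.

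For RNA-Seq, each library's gene table, with 28252 genes, holds estimated counts, FPKM and TPM that the authors obtained with RSEM. The methods of the study describe libraries from the TruSeq RNA kit, alignment with STAR to hg19 and DESeq2, whereas the submitters' processing notes name GRCh38 (hg38). The version of RSEM, the alignments it used and any use of strand are not given in the sources used here. The deposited FPKM values entered no result. Estimated counts, of which 97.87% to 97.99% were whole, were rounded. The quasi-likelihood test of edgeR was run in 1 model of the 3 groups, with no block, TMM factors and a filter that keeps genes with 0.455 CPM or more in 2 libraries. A gene was called where its change was 1.5-fold or more and its p, adjusted by Benjamini-Hochberg over the 14502 genes kept, was under 0.05. Log2 CPM used a prior count of 2. The deposited TPM values give levels between genes. Replicates differed by far more than sampling noise (chi-square per degree of freedom of 42.4 to 129).

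For ChIP-Seq, the deposited values are RPKM per promoter, which the authors computed from BWA alignments (hg38) after redundant reads were reduced to 1 copy. The start site taken for each gene is not given in the sources used here. Values in all 3 libraries were whole multiples of 1 step (100.0%, within 0.00051 RPKM), which gives depths of 28385725 (UT), 37493949 (Ni-E) and 29933551 (Ni-W) reads and a floor of 3 reads at 0.0264, 0.02 and 0.0251 RPKM. This floor concerns counting and is not the background level of the ChIP.

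The 5 genes were named in full. From each list at most 4 called genes with at least 1 CPM, the nearest tested neighbours, and the 3 genes with the most similar profile at 1 CPM or more were named. The neighbours of PLEKHS1 and DAB1 are not reported here. Alternatives were DESeq2, RLE factors, other filters, a replicate block, fits of 2 groups only, limma on log2(TPM + 1) at a mean of at least 1 TPM, libraries left out in turn, linear TPM for the recovery and other scalings of H3K4me3. In simulated Ni-W against UT counts of 14502 genes, 53 of 100 genes changed by 2 on the log2 scale and 6 of 100 changed by 1 were recovered, with 6 false calls. Software versions were DESeq2 1.42.0, limma 3.58.1 and edgeR 4.0.16 under R 4.3.3. Under Python 3.11.15, matplotlib 3.10.9, scipy 1.17.1, pandas 2.3.3 and numpy 2.4.6 were used.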

Additional observations from a re-analysis of the deposited data

How the results depend on the processing

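The number of genes called depended strongly on the test, while the direction of the RNA difference of the 5 genes did not, except for A2ML1 in Ni-W against UT cells. In Ni-E against UT cells, 314 genes were called by edgeR, 730 by DESeq2, 209 with at least 10 counts in every library, 170 by limma on log2(TPM + 1), 449 without a filter and 0 to 320 with 1 library left out. In Ni-W against UT cells, 87 genes were called, against 442 by DESeq2, 193 without a filter, 54 with at least 10 counts in every library, 0 with only the 2 groups and 0 to 38 with 1 library left out. In Ni-W against Ni-E cells, 0 were called, against 139 by DESeq2, 14 without a filter and 0 with any library left out. Leaving out either Ni-E library gave 0 calls in Ni-E against UT and in Ni-W against UT cells, and leaving out UT replicate 1 or 2 gave 44 or 18 and 2 or 0. Fewer libraries leave fewer degrees of freedom. In Ni-E against UT cells, SPINK1, PLEKHS1 and DAB1 no longer met the criteria without either Ni-E library, nor did DAB1 without UT replicate 2.

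With the replicate block, 1833, 1243 and 655 genes were called in Ni-E against UT, Ni-W against UT and Ni-W against Ni-E cells. Deviations of libraries with the same number correlated across 14502 genes (r = 0.657 for UT and Ni-E, 0.764 for UT and Ni-W, 0.689 for Ni-E and Ni-W), but the labels give only a suffix for a duplicate and each comparison has 2 pairs, so the libraries were taken to share only a number. In Ni-W against UT cells the block called PLEKHS1, DAB1 and AADAC (edgeR adjusted p = 7.134e-06, 3.241e-05 and 0.00187) and not SPINK1 (0.247) or A2ML1 (0.871). In Ni-W against Ni-E cells it called SPINK1, PLEKHS1, DAB1 and A2ML1 (edgeR adjusted p = 1.264e-05, 0.000153, 0.00163 and 0.0484) and not AADAC (0.872). In Ni-E against UT cells all 5 met the criteria with the block, as did 725 of the 14502 genes in the lower direction. That comparison chose the genes, so nothing is read from this count.

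The share regained on linear TPM was 80.0% for SPINK1, 17.9% for PLEKHS1 and 11.7% for DAB1, lower than on log2 CPM by construction. With RLE factors or 1 library left out, no share moved by more than its spread over library choices. For the libraries left out this is no separate check, since the spread comes from the same libraries. For H3K4me3, PLEKHS1 in Ni-W against UT cells was −0.198 without median scaling and −0.254 as a log2 ratio of RPKM + 1, and DAB1 was −0.071 and −0.0987. In Ni-W against Ni-E cells the log2 ratio was −0.282 for PLEKHS1 and −0.145 for DAB1. The other 39 of these 45 values differed from the main score by no more than its own counting error. The values without median scaling and the log2 ratios are in other units than the score, so this is no measure of agreement for them. Signs could also change, as for SPINK1 in Ni-E against UT cells. Its score was 0.0056, against −0.024 without median scaling, −0.042 after quantile normalization and −0.028 as a log2 ratio. Depth limits A2ML1 in all groups, and SPINK1 and DAB1 in Ni-E cells.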
